A study of Mus musculus with 3 samples.

Results

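The genes described here are 5 secreted-protein genes from families expressed in mouse airspace macrophages. They are the chitinase-like genes Chil3 and Chil4, and the eosinophil-associated ribonuclease genes Ear1, Ear2 and Ear6. Their identifiers in the files are ENSMUSG00000040809, ENSMUSG00000063779, ENSMUSG00000072601, ENSMUSG00000072596 and ENSMUSG00000062148, in that order. They were chosen by symbol from the 33696 genes listed in the deposited count tables, and all 5 had UMIs (unique molecular identifiers, each standing for 1 captured mRNA molecule) in every library. The cells were bronchoalveolar lavage immune cells of wild-type C57BL/6J mice, 12 weeks old, profiled with a droplet 3′ single-cell kit. The groups were filtered air, 1 ppm ozone and 1.5 ppm ozone, each breathed for 3 hours, with lavage of the right lung lobes 22 to 24 hours after the exposure ended. Cells of 3 to 4 mice were pooled for each group, so each group is 1 library. No library has a replicate, so no test between groups was made, and each interval given is a 95% interval for counting error alone. Variation between mice and between preparations was not measured.

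Chitinase-like proteins have the fold of the chitin-cleaving enzymes but have lost the catalytic activity. Chil3, also called Ym1, is secreted by alveolar macrophages and is widely used as a marker of alternatively activated mouse macrophages, along with its close relative Chil4, also called Ym2. The Ear genes belong to the ribonuclease A family and are the rodent counterparts of the human eosinophil granule proteins ECP and EDN. Several of them are made by mouse alveolar macrophages as well as by eosinophils.

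Each subfamily is a set of near copies, which is why the promoter sequences are shown side by side. In RefSeq on build GRCm38.p6, Chil3 spans chr3:106147554-106167564 and Chil4 spans chr3:106201491-106219479, both on the minus strand. Ear1 spans chr14:43818765-43819639 on the minus strand, Ear2 spans chr14:44102654-44103531 and Ear6 spans chr14:51853768-51854643 on the plus strand. The counts were made on GRCm39, so these positions serve only to place the genes. Each sequence runs 5′ to 3′ from 250 bases before the annotated start to 50 bases after it, at chr3:106167515-106167814 for Chil3, chr3:106219430-106219729 for Chil4, chr14:43819590-43819889 for Ear1, chr14:44102404-44102703 for Ear2 and chr14:51853518-51853817 for Ear6. Capitals mark matches to TATAAA, to GGAAGT (the ETS and PU.1 core, here read on the opposite strand as ACTTCC) and to TTGCNNAA (a C/EBP element, read on the opposite strand in Chil4 as TTCAGCAA).
Chil3: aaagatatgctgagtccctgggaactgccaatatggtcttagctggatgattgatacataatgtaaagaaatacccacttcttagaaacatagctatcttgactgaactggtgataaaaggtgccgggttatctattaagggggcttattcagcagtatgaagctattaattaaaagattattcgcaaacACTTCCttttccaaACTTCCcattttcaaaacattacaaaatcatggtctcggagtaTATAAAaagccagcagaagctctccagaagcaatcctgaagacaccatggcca
Chil4: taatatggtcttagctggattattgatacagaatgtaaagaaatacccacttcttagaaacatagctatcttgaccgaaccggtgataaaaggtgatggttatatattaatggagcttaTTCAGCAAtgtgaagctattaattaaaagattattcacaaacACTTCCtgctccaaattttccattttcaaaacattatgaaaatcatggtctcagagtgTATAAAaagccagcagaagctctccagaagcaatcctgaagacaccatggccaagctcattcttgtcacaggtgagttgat
Ear1: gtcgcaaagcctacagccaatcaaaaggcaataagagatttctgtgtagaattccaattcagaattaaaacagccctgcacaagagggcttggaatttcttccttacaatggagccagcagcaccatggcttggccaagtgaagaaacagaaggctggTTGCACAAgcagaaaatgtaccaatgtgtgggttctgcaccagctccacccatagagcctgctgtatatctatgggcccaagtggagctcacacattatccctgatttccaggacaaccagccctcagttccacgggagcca
Ear2: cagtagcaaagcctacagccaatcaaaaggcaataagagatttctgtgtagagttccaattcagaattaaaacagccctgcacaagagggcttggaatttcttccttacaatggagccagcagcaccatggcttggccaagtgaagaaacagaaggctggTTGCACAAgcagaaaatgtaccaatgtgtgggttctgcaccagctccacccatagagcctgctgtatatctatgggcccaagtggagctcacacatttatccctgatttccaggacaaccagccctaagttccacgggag
Ear6: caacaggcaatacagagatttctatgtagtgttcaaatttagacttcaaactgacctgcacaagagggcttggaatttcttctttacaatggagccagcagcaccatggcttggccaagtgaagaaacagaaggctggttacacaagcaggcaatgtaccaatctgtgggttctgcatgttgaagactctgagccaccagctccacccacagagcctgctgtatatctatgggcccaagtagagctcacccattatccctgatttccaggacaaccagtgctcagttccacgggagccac

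The promoter windows of Chil3 and Chil4 were identical at 92.6% of 271 aligned bases, and those of Ear1 and Ear2 at 98.99% of 297. Ear6 matched Ear1 at 92.8% of 279 promoter bases and Ear2 at 92.8% of 276. In all, 6 motifs were searched on both strands in the 5 windows and in 32534 promoters of the same length. TATAAA, present in 13.6% of all promoters, was found in both chitinase-like promoters. Its first base lies 3 bases before the annotated start of Chil3, across which it runs, and 31 bases before that of Chil4. GGAAGT, in 23.7% of promoters, had 2 matches in Chil3 and 1 in Chil4. TTGCNNAA, in 10.8%, was found in Chil4, Ear1 and Ear2. A STAT6 element (TTC and GAA with 4 bases between them, 6.98%), a PPAR direct repeat (AGGTCA repeated after 1 base, 0.0400%) and TGACNNNGC (the antioxidant response core, 12.4%) had no match in these windows, and TATAAA and GGAAGT none in the Ear windows. Ear6 held none of the 6 motifs.

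Over whole transcripts, Chil3 and Chil4 were identical at 94.7% of aligned bases, Ear1 and Ear2 at 96.9%, and Ear6 matched these at 87.1% and 86.6%. The kit reads the 3′ end, so the last 400 bases of each transcript were searched in 60-base words against all other annotated genes of GENCODE M21. For Chil3, Chil4 and Ear6, 0 of 341 words occurred in another gene. For Ear1, 50.4% of words also occurred elsewhere, in Ear2, Ear10 or the pseudogenes Ear-ps9 and Ear-ps2. For Ear2 the share was 19.4%, mostly in Ear1. The split of reads between Ear1 and Ear2 is therefore uncertain, while Chil3, Chil4 and Ear6 can be told apart at their ends.

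The libraries held 5307 barcodes and 59359742 UMIs after filtered air, 3233 and 42825676 after 1 ppm, and 7269 and 95403078 after 1.5 ppm. Cells with at least 500 UMIs, at least 300 genes and at most 10% mitochondrial UMIs were kept, which left 3479, 2241 and 6577 cells in the same order of dose. The mitochondrial limit removed 34.2%, 30.6% and 9.07% of barcodes. Pairs of libraries shared 4 to 10 barcode sequences. Of 20 clusters made without the 5 genes or their families among the variable genes, 12 were alveolar-macrophage-like, with 6 to 13 of 13 markers counted in each, and they held 3315, 2134 and 5650 cells. The largest of the 12 was the cluster led by Dnah11 and Rbfox1 after filtered air, the one led by Fabp1 and Acaa1b after 1 ppm, and the one led by Il1b and Osm after 1.5 ppm. Median UMIs per alveolar-macrophage-like cell were 13854, 16000.5 and 13097, the median mitochondrial share 4.12%, 3.97% and 2.31%, and the share of cells with at least 3 UMIs from genes of dividing cells (G2 and M phase) 28.1%, 28.6% and 38.5%.

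In alveolar-macrophage-like cells the genes fell into different dose patterns. Chil3 was highest after 1 ppm and lowest after 1.5 ppm, Ear1 was lower than air after each ozone dose, Ear2 was close to air after 1 ppm and lower after 1.5 ppm, and Ear6, a scarce transcript, was over 3 times its air level after both doses. Levels are UMIs per 1000000 UMIs summed over the class (CPM), not divided by transcript length, since each molecule is counted at its 3′ end.

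Chil3 was one of the most abundant transcripts of these cells. It had 7625 CPM after filtered air (interval 7601 to 7649), 9562 CPM after 1 ppm (9531 to 9593) and 6249 CPM after 1.5 ppm (6232 to 6265), which placed it 8th, 4th and 7th of all genes by UMIs. The 3 intervals do not overlap. The level after 1 ppm was 1.25 times that after air (1.25 to 1.26), and the level after 1.5 ppm was 0.819 times that after air (0.816 to 0.823). After 1.5 ppm it was 0.653 times the level after 1 ppm (0.651 to 0.656). On the log2 scale these ratios are 0.33, -0.29 and -0.61, where the median over all genes tested was -0.08, -0.12 and -0.01.

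Chil4, the other chitinase-like gene, was near the detection limit. It had 123 UMIs in the air library, 67 after 1 ppm and 193 after 1.5 ppm, or 2.48, 1.79 and 2.15 CPM. Its ratio to air was 0.723 after 1 ppm (0.528 to 0.981) and 0.869 after 1.5 ppm (0.690 to 1.10), so the lower value after 1.5 ppm was within counting error. Per 10000 Chil3 UMIs there were 3.25, 1.87 and 3.44 Chil4 UMIs, and no cell held more than 3. Whether some of these UMIs were Chil3 reads assigned to Chil4 was not tested.

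Ear1 had 450.3 CPM after filtered air (444 to 456), 384 CPM after 1 ppm (378 to 390) and 280.4 CPM after 1.5 ppm (277 to 284). Its order was air, 1 ppm, 1.5 ppm, with no overlap of intervals. The ratio to air was 0.853 after 1 ppm (0.835 to 0.871) and 0.623 after 1.5 ppm (0.612 to 0.634). Ear2, its closest relative, had 1003 CPM after filtered air (994 to 1011), 1082 CPM after 1 ppm (1072 to 1093) and 649.7 CPM after 1.5 ppm (644 to 655). Its ratio to air was 1.08 after 1 ppm (1.07 to 1.09) and 0.648 after 1.5 ppm (0.640 to 0.656). For each 100 Ear2 UMIs there were 44.9 Ear1 UMIs after air, 35.5 after 1 ppm and 43.2 after 1.5 ppm. That ratio was lowest in the 1 ppm library, the one in which Ear1 lay below air and Ear2 above it.

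Ear6 had 109 UMIs after filtered air, 275 after 1 ppm and 639 after 1.5 ppm. Its level was 2.19 CPM after air (1.80 to 2.65), 7.34 CPM after 1 ppm (6.50 to 8.27) and 7.12 CPM after 1.5 ppm (6.58 to 7.70). Both ozone libraries lay above the air library, and their own intervals overlap. The ratio to air was 3.35 after 1 ppm (2.67 to 4.22) and 3.25 after 1.5 ppm (2.65 to 4.02), and the ratio of 1.5 ppm to 1 ppm was 0.970 (0.841 to 1.12). Its log2 ratios to air, 1.74 and 1.69, have the opposite sign to those of Ear1 (-0.23 and -0.68).

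**Figure D1:**
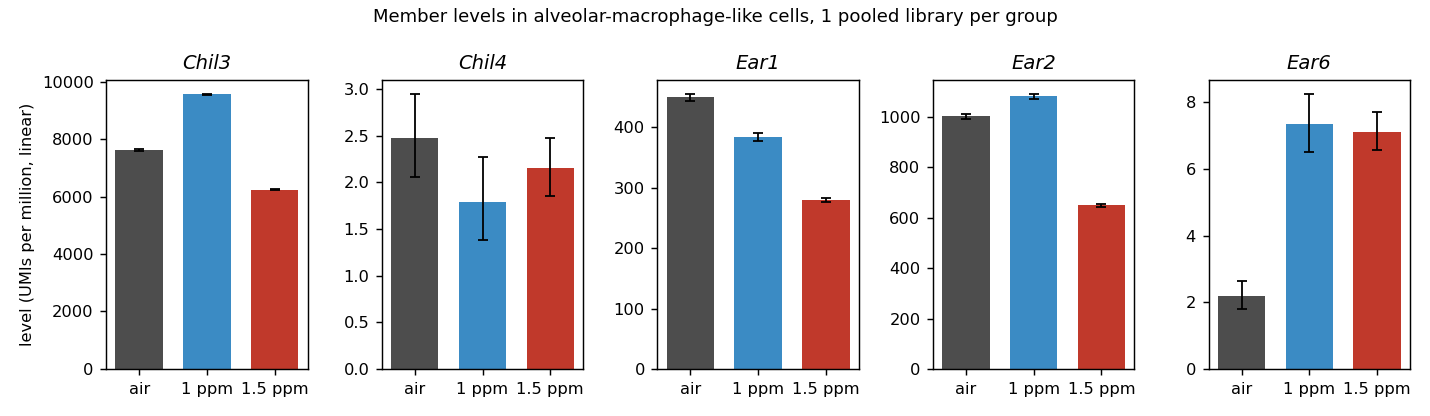
Level of each gene in alveolar-macrophage-like cells (UMIs per 1000000, linear axes from 0, a separate scale for each gene) after filtered air, 1 ppm and 1.5 ppm ozone; bars are 1 pooled library each and error bars are exact Poisson 95% intervals. Chil3 and Ear2 stand highest after 1 ppm and lowest after 1.5 ppm, Ear1 steps down with dose, Ear6 stands at 7.34 and 7.12 in the ozone libraries against 2.19 after air, and the 3 intervals of Chil4 overlap.

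Against the other genes of these cells, a difference of 1.5-fold was rare after 1 ppm and more common after 1.5 ppm. Of the 5 genes, Chil3, Ear1 and Ear2 passed the minimum of 50 CPM in the higher library and 100 UMIs over the 3 libraries. After 1 ppm, 0 of these 3 were 1.5-fold higher or lower than after air, where 0.373% of 4025 genes were higher and 0.795% lower. After 1.5 ppm, 2 of 3, Ear1 and Ear2, were at least 1.5-fold lower than after air, where 3.56% of 4159 genes were lower and 7.84% higher. Only 82 of these genes had a lower ratio than Ear1, and 116 a lower one than Ear2. Between the ozone libraries, Chil3 and Ear2 were at least 1.5-fold lower after 1.5 ppm than after 1 ppm, where 1.36% of 4055 genes were lower and 4.51% higher. For that comparison 27 genes had a lower ratio than Ear2 and 48 a lower one than Chil3. At 2-fold, 0 of the 3 genes passed in any comparison, where 0.0497% of genes were higher and 0.149% lower after 1 ppm than after air, 1.42% and 0.361% after 1.5 ppm than after air, and 1.33% and 0.0986% after 1.5 ppm than after 1 ppm. With median-of-ratios size factors in place of total UMIs, the genes at least 1.5-fold apart numbered 19 higher and 22 lower after 1 ppm in place of 15 and 32, and 413 higher and 96 lower after 1.5 ppm in place of 326 and 148. Under that scaling Ear2 was no longer 1.5-fold lower than air, with a log2 ratio of -0.55. Over every barcode, whatever its mitochondrial share, neither Ear gene was 1.5-fold lower than air (-0.58 for Ear1 and -0.54 for Ear2).

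Ear6 lies below the minimum level, so it was set against all 12875 genes with 100 UMIs and no minimum CPM, a setting added after the data were seen. Of the 5 genes, 1 was then at least 2-fold higher than air at each dose, Ear6. After 1 ppm 0.435% of these genes, 56 in all, were that much higher than after air, and after 1.5 ppm 3.51%, or 452 genes.

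Per cell, Chil3 was near universal, Ear2 was in most cells, Ear1 in fewer, and Chil4 and Ear6 in few. Each cell was thinned to 5000 UMIs, which left out 62, 35 and 304 shallower cells. At that depth the median cell held 38 Chil3 UMIs after air, 47 after 1 ppm and 30 after 1.5 ppm, and the range that leaves out the lowest and highest 10% of cells was 22 to 57, 31 to 69 and 16 to 52. The shift after 1 ppm was seen at both ends of that range. After 1.5 ppm both ends lay below those of air, yet the 10% of cells with most Chil3 held 21.4% of its UMIs. That share was 17.7% after air and 17.3% after 1 ppm. The highest cell held 164 Chil3 UMIs among 3253 cells after air, 185 among 2099 after 1 ppm and 211 among 5346 after 1.5 ppm. A highest value tends to rise with the number of cells. Cells with at least 1 Chil3 UMI made up 100%, 100% and 99.9% of unthinned cells.

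The variance of Chil3 between thinned cells was 5.80 times its mean after air, 6.20 times after 1 ppm and 9.27 times after 1.5 ppm, where the median gene had 1.10, 1.09 and 1.09. Of the 6618, 6602 and 6660 genes set beside it, 23, 16 and 15 had a higher ratio. Such a ratio tends to rise with the mean, which for Chil3 was 39.1, 49.3 and 32.7 UMIs. The variance beyond the mean, divided by the squared mean, was 0.123, 0.105 and 0.253 for Chil3. By that measure Ear1 (0.575, 0.694 and 1.00) and Ear2 (0.373, 0.366 and 0.646) varied more between cells. Ear2 was detected in 94.7% of thinned cells after air (93.9 to 95.5), 95.9% after 1 ppm (94.96 to 96.7) and 87.4% after 1.5 ppm (86.5 to 88.3). Its unthinned shares were 98.9%, 99.2% and 95.3%. Ear1 was detected in 77.3%, 72.4% and 62.5% of thinned cells and in 91.6%, 91.3% and 82.2% of unthinned cells. The median cell held 5, 5 and 3 Ear2 UMIs and 2, 1 and 1 Ear1 UMIs of 5000. Both Ear genes therefore showed the lower level after 1.5 ppm as fewer positive cells and as fewer UMIs in the median cell.

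**Figure D2:**
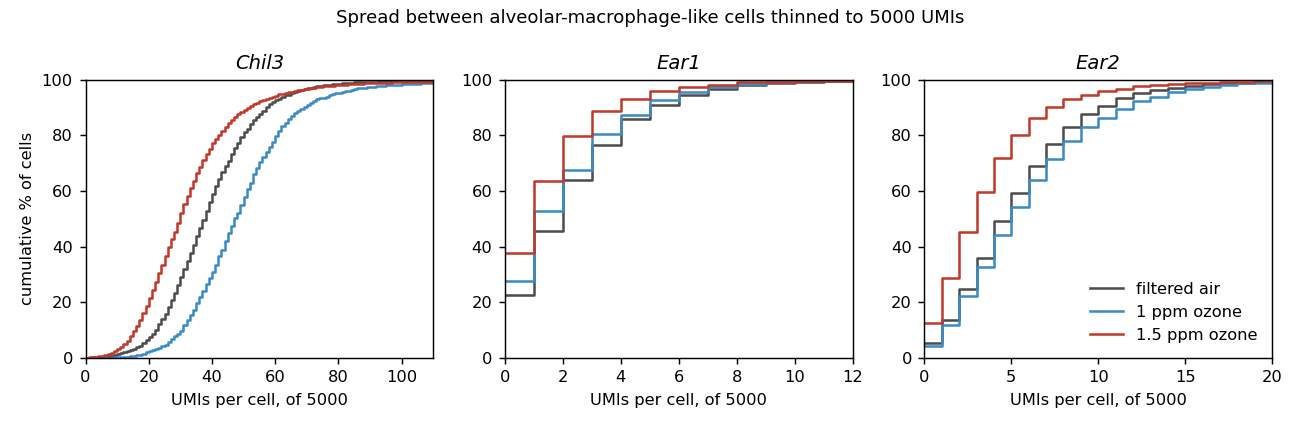
Cumulative percent of alveolar-macrophage-like cells (y) with up to a given number of UMIs (x, linear) of Chil3, Ear1 and Ear2 after each cell was thinned to 5000 UMIs; 1 line per library, 3253, 2099 and 5346 cells after filtered air, 1 ppm and 1.5 ppm. The Chil3 line of 1 ppm lies right of air over most of the range (medians 47 and 38) and that of 1.5 ppm lies left of it up to the top few percent (median 30), and the Ear1 line of 1.5 ppm starts at 37.5% of cells with 0 UMIs.

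Ear6 was detected in few cells. It had a UMI in 2.20% of unthinned cells after air (1.73 to 2.76), 8.11% after 1 ppm (6.98 to 9.35) and 7.56% after 1.5 ppm (6.88 to 8.28). Thinned to 5000 UMIs the shares were 0.646%, 2.48% and 2.77%. Spread over the cells by depth alone, its UMIs would be expected in 106.9, 254.6 and 591.2 cells. So low a level gives few positive cells even when spread evenly. The positive cells, 73, 173 and 427, were fewer still, so the UMIs lay in fewer cells than depth alone would give. Of the 73, 173 and 427 positive cells, 61, 121 and 307 held 1 UMI and 8, 20 and 45 held 3 or more, with at most 8, 8 and 7 in a cell. Positive cells were deeper than negative ones, with median totals of 18388, 22272 and 21391 UMIs against 13770.5, 15667 and 12674. Within cells of 10000 to 20000 UMIs, Ear6 stood at 2.20, 3.88 and 5.31 CPM after air, 1 ppm and 1.5 ppm, and within cells of 20000 to 40000 UMIs at 2.88, 10.2 and 10.7 CPM. The order of both ozone libraries above air was thus seen at matched depth, with a smaller gap for 1 ppm in the shallower cells. Chil4 had a UMI in 3.62%, 3.05% and 3.204% of unthinned cells and in 1.54%, 0.667% and 1.05% of thinned cells.

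Across single cells of a library, the counts of Ear1 and Ear2 went together most. Their Spearman correlation was 0.39, 0.40 and 0.41 over the thinned cells of the 3 libraries. That of Chil3 with Ear2 was 0.26, 0.19 and 0.28, and that of Chil3 with Ear1 0.11, 0.11 and 0.19. Ear6 with any other of the genes gave values between -0.04 and 0.01, in counts too sparse to show a relation. These values are descriptions, since all cells of a library share 1 preparation. The split of reads between Ear1 and Ear2 is uncertain, and its part in their correlation was not tested.

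The macrophage clusters were read within each library, among those with at least 50 cells there. The cluster led by Il1b and Osm was high in Chil3 in all 3 libraries, at 9249.5 CPM after air, 10688 after 1 ppm and 7281 after 1.5 ppm, and the cluster led by 9130015G15Rik was higher still in the ozone libraries, at 10878 and 7509 CPM. The cluster led by Slc7a11, with the stress genes Hspa1a and Hmox1, was lowest after air (5165 CPM) and after 1.5 ppm (3952 CPM) and had too few cells after 1 ppm. Ear2 was highest in the cluster led by Fabp1 and Acaa1b (1334, 1554 and 1059 CPM after air, 1 ppm and 1.5 ppm) and in the one led by the class II genes Cd74 and H2-Aa (1323, 1525 and 1155 CPM). Ear1 was high in the clusters led by Asns (557, 487 and 539 CPM) and Cd74 (534, 496 and 476 CPM). Both Ear genes were low in the stress cluster, where Ear2 had 309 CPM after air and 273 after 1.5 ppm, and Ear2 was low after 1.5 ppm in the clusters of dividing cells led by H1f5 (403 CPM) and Cdc20 (406 CPM). Ear6 followed neither order. Over all libraries it was at 11.1 CPM in the cluster led by the metallothioneins Mt2 and Mt1, 10.9 in the Asns cluster, and 9.96 and 8.46 in the clusters of dividing cells. It was at 2.04 and 1.85 CPM in the Fabp1 and Cd74 clusters, with high Ear2, and at 1.97 CPM in the stress cluster, with the lowest Ear2.

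Within clusters, the Chil3 pattern repeated. Among clusters with at least 50 cells in both libraries compared, Chil3 was higher after 1 ppm than after air in 10 of 10, with ratios of 1.09 to 1.84. It was lower after 1.5 ppm than after 1 ppm in 10 of 10, with ratios of 0.619 to 0.709. After 1.5 ppm it was lower than after air in 10 of 11 clusters. The exception was the cluster led by 9130015G15Rik, with a median mitochondrial share of 7.16%, where the level was 7509 CPM after 1.5 ppm and 5917 CPM after air. For the Ear genes the median ratio of 1.5 ppm to air within clusters was 0.768 for Ear1 and 0.794 for Ear2, beside 0.623 and 0.648 over the class. The interval lay below 1 in 10 of 11 clusters for Ear1 and 9 of 11 for Ear2. After 1 ppm Ear2 was split, with the interval of its ratio to air above 1 in 4 of 10 clusters and below 1 in 3 (median 1.01), and Ear1 was below air in 8 of 10 and above it in 1 (median 0.832).

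With each library weighted to the cluster make-up of the air library, the log2 ratio of 1.5 ppm to air was -0.31 for Ear1 and -0.26 for Ear2, in place of -0.68 and -0.63, and neither was then 1.5-fold lower. This weighting was added after the data were seen, and the clusters were made from genes that themselves differ between libraries. It also left Chil3 and Ear2 less than 1.5-fold lower after 1.5 ppm than after 1 ppm (log2 ratios of -0.55 and -0.42). For Ear6, the interval of the ratio to air lay above 1 in 5 of 10 clusters after 1 ppm and in 5 of 11 after 1.5 ppm, and below 1 in none. The metallothionein cluster had 1.97 Ear6 CPM after air, 7.71 after 1 ppm and 16.3 after 1.5 ppm, a ratio of 1.5 ppm to air of 8.26 (4.40 to 17.5). In the Asns cluster the 1 ppm library was the high one, with 6.53, 16.6 and 8.39 CPM in the same order. The cluster led by Cdc20 had 1 UMI after air, at 0.867 CPM, then 20.4 CPM after 1 ppm and 7.40 after 1.5 ppm, where the ratio of 1.5 ppm to 1 ppm was 0.363 (0.207 to 0.647). Ear6 was thus highest in the metallothionein cluster after 1.5 ppm and in the Cdc20 and Asns clusters after 1 ppm.

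**Figure D3:**
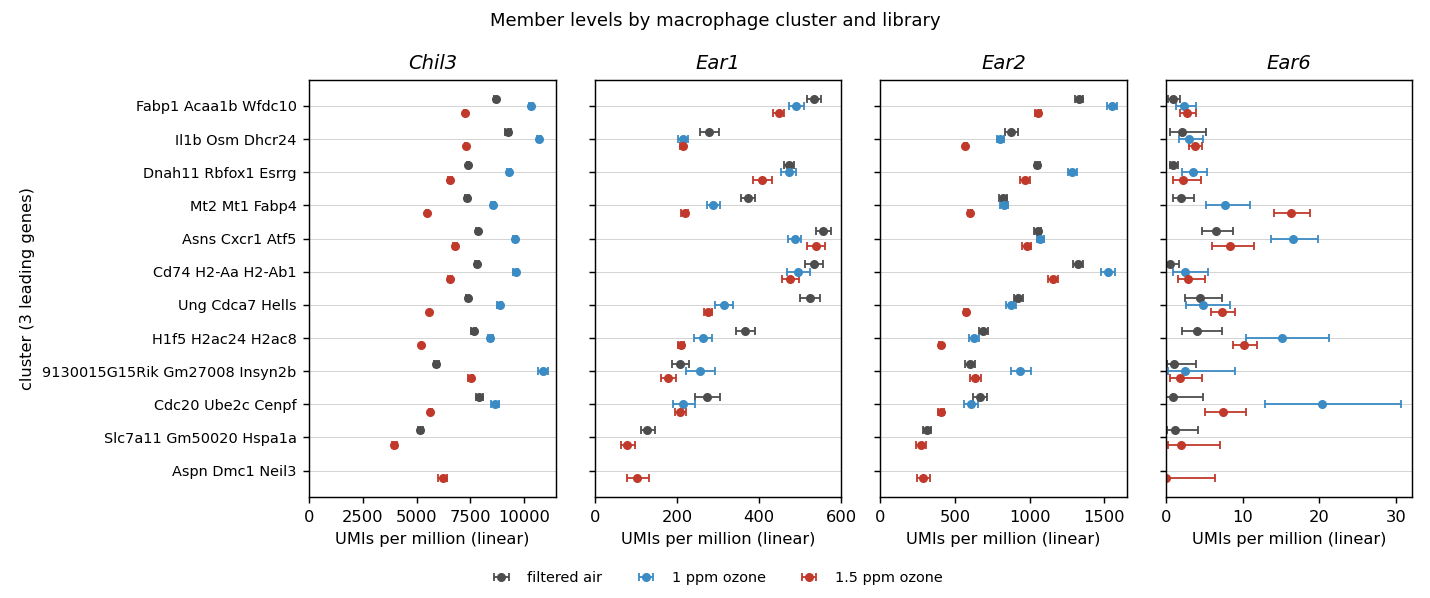
Level (x, UMIs per 1000000, linear axes) of Chil3, Ear1, Ear2 and Ear6 in each alveolar-macrophage-like cluster (y, named by its leading genes) for libraries with at least 50 cells in it; points are libraries and bars exact Poisson 95% intervals. Chil3 has 1 ppm right of air in each of 10 clusters, Ear2 has its high values near the Fabp1 and Cd74 clusters, and Ear6 has its high values in the metallothionein, Asns and dividing clusters.

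The 1.5 ppm library differed in mitochondrial share and in the share of cells with at least 3 UMIs of dividing-cell genes. The levels were therefore also read at matched mitochondrial share and without those cells. In cells of 2.5 to 4% mitochondrial UMIs, Chil3 stood at 7545 CPM after air, 9425 after 1 ppm and 6039 after 1.5 ppm. Ear1 stood at 464, 376 and 261 CPM and Ear2 at 990, 1033 and 632 CPM in the same cells. The order of the libraries was that of the whole class for all 3 genes. Ear6 had 2.17, 8.87 and 6.99 CPM in these cells, whereas in cells of 1.5 to 2.5% it had 4 UMIs after air, 1 after 1 ppm and 366 after 1.5 ppm (1.13, 0.575 and 7.40 CPM). With cells of 3 or more such dividing-cell UMIs left out, the log2 ratios of 1.5 ppm to air were -0.18 for Chil3, -0.60 for Ear1 and -0.46 for Ear2. Each kept its direction. Ear2 was then no longer 1.5-fold lower than air, and neither it nor Chil3 was 1.5-fold lower than after 1 ppm.

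**Figure D4:**
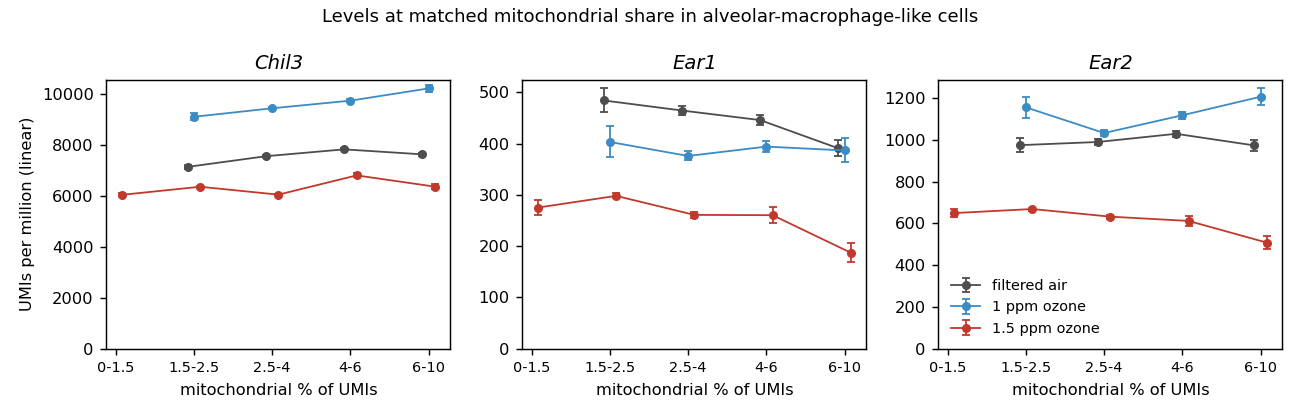
Level (y, UMIs per 1000000, linear axes from 0) of Chil3, Ear1 and Ear2 in alveolar-macrophage-like cells grouped by mitochondrial percent of UMIs (x), for the 3 libraries; bars are exact Poisson 95% intervals, and a group with under 50 cells is not drawn. For Chil3 and Ear2 the 1.5 ppm points lie below air and the 1 ppm points above it in each group drawn for all 3 libraries; for Ear1 the 1 ppm points lie between the others, with intervals that overlap those of air in the 6 to 10% group.

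The genes most like each of the 5 were sought over 33 sums, 1 for each cluster and library with at least 50 cells, among 6775 genes with a mean of at least 20 CPM, by Pearson correlation of log2(CPM + 1). For Ear1 they were Ear2 (r = 0.91), the keratin gene Krt19 (0.89), the peroxisomal thiolase gene Acaa1b (0.89) and Fcgrt (0.89), which encodes the neonatal Fc receptor. For Ear2 they were Fcgrt (0.94), the myosin gene Myo7a (0.91), Ear1 (0.91) and the efferocytosis receptor gene Axl (0.89). For Chil3 they were Pip5k1c (0.86), Sec61a1 (0.85), Tgfb1 (0.84) and Yipf3 (0.82), of which Sec61a1 encodes the channel through which secreted proteins enter the endoplasmic reticulum. For Ear6 they were Ndufs3 (0.74), the endoplasmic reticulum translocon genes Ssr2 (0.72) and Ssr1 (0.72), and Commd3 (0.71), and for Chil4 they included Casd1 (0.71), Ptger2 (0.70) and Stk40 (0.66). The values for Ear6 and Chil4 rest on sparse counts. By Spearman correlation, 1 of the 4 genes remained among the nearest 4 for Chil3 (Sec61a1) and 1 for Ear6 (Ndufs3), and Siglecf (0.93) came first for Ear2. Between the 5 genes, Chil3 and Ear2 had r = 0.72, Chil3 and Ear1 0.53, and Ear6 with Ear2 -0.03. These sums share libraries and preparation, so the values are descriptions. The value between Ear1 and Ear2 also rests on an uncertain split of their reads.

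Of the wider families, few genes were measured at 10 CPM or more in these cells. Of 10 chitinase family genes, these were Chil3, the chitinase-domain gene Chid1 and the lysosomal chitobiase gene Ctbs. Chid1 had 16.6, 15.2 and 18.8 CPM and Ctbs 17.5, 16.4 and 19.1 CPM after air, 1 ppm and 1.5 ppm. The genes of the active chitinases, Chia1 and Chit1, had at most 8 UMIs in a library. Of 17 ribonuclease A family genes, Ear1, Ear2, Rnase4 and Rnase6 reached 10 CPM. Rnase4 had 49.5, 47.8 and 27.0 CPM, a ratio of 1.5 ppm to air of 0.545 (0.515 to 0.577), and Rnase6 had 46.5, 36.5 and 30.3 CPM, a ratio of 0.651 (0.616 to 0.689). Rnh1, which encodes the cytosolic inhibitor of this family, was higher after ozone, with 224 CPM after air, 279 after 1 ppm and 275 after 1.5 ppm. The lysosomal T2 ribonuclease genes Rnaset2a and Rnaset2b had 12.2, 15.6 and 8.15 CPM and 10.6, 14.4 and 8.14 CPM.

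Chil3 is often read as a marker of the type 2 response, so the list of 19 type 2 and alternative activation genes was set beside it. Of these 5 passed the minimum level, and 0 of them were 1.5-fold higher or lower in either ozone library than in air. Their median log2 ratio to air was -0.02 after 1 ppm and -0.27 after 1.5 ppm, beside -0.08 and -0.12 over all genes. The mannose receptor gene Mrc1 had 1049.5 CPM after 1.5 ppm and 1386 CPM after air (log2 ratio -0.40), the transglutaminase gene Tgm2 128 and 168 CPM (-0.40), the dectin-1 gene Clec7a 859.9 and 1039.6 CPM (-0.27), and the interleukin-13 receptor gene Il13ra1 87.9 and 99.2 CPM (-0.17). Arg1 and Retnla, often read together with Chil3, had 25, 17 and 39 UMIs and 1, 1 and 10 UMIs in these cells after air, 1 ppm and 1.5 ppm. Over all kept cells Arg1 had 459 UMIs after 1.5 ppm and Retnla 102 after 1 ppm, so most of their UMIs in those libraries lay outside alveolar-macrophage-like cells. Of 17 genes of GM-CSF signalling, PPAR gamma and macrophage identity, 14 passed, with medians of 0.11 and -0.01. Car4, Fabp4, Pparg and, from the type 2 list, Mrc1 are also among the markers that named the class. Car4 was 1.5-fold higher in both ozone libraries (log2 1.20 and 1.20), and Fabp4 was higher after 1.5 ppm (0.73). Pparg, which encodes a regulator of alveolar macrophage identity, had log2 ratios to air of -0.58 and -0.56, and Bhlhe41 of 0.58 and 0.49.

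The Ear genes are named after eosinophils, so eosinophil markers were counted. Epx, Prg2, Prg3, Ccr3, Il5ra and Alox15 together had 9 UMIs after air, 3 after 1 ppm and 9 after 1.5 ppm over all kept cells, no cell held UMIs of 2 of these genes, and Prg3 was at 0 in all 3 libraries. Of the Ear6 UMIs, 109 of 110, 275 of 277 and 639 of 642 were in alveolar-macrophage-like cells. That class held nearly all UMIs of the kept cells, whatever the gene. It had 49680238 of 50808279 after air, 37446063 of 38147865 after 1 ppm and 89696032 of 93824775 after 1.5 ppm.

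Chil3 also served to gauge macrophage RNA in cells of other classes, since free RNA of lysed cells can enter any droplet. Most of these cells held some: a Chil3 UMI was found in 100% of 21 T cell-like cells after air (median depth 3393 UMIs), 88.9% of 72 after 1.5 ppm (79.3 to 95.1, median depth 3798.5), 87.0% of 23 airway epithelial-like cells after air and 83.5% of 79 neutrophil-like cells after 1.5 ppm (median depth 2289). The amount per cell was small and much alike between classes. After air the median was 3 Chil3 UMIs per cell in C1q macrophage-like, T cell-like, airway epithelial-like and migratory dendritic-like cells, although their median depth ran between 1034 and 12726 UMIs. After 1.5 ppm it was 2 in each of these classes and in neutrophil-like cells. Alveolar-macrophage-like cells held a median of 105 after air, 154 after 1 ppm and 81 after 1.5 ppm. Thinned to 1000 UMIs, 98.4% of alveolar-macrophage-like cells of 1.5 ppm held a Chil3 UMI, against 26.3% of C1q macrophage-like, 39.2% of migratory dendritic-like, 47.8% of T cell-like and 63.3% of neutrophil-like cells of that library. The median depths of these other classes were 7500, 7795, 3798.5 and 2289 UMIs in the same order. Thinning takes more of a small count from a deeper cell, so these shares do not rank the classes by Chil3 UMIs per cell.

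The summed level in these classes rested in part on single cells. In T cell-like cells Chil3 stood at 41.5% of the macrophage level after air and 28.4% after 1.5 ppm, and 1 cell held 210 of the 284 Chil3 UMIs after air. In C1q macrophage-like cells the level was 32.04%, 21.8% and 13.8% of the macrophage level after air, 1 ppm and 1.5 ppm, and 1 cell held 519 of the 1494 Chil3 UMIs after air. In migratory dendritic-like cells it was 3.27% after air, where no cell held more than 6, and 24.8% after 1.5 ppm, where 1 cell held 264 of 828. With cells at or above 10% of the macrophage level left out, the C1q class stood at 3.23%, 2.29% and 3.09% and the dendritic class at 3.07% and 2.83%. Doublets were not removed, and their part in these values was not tested. The unnamed cluster led by Cmss1 and 2410006H16Rik, with median depths of 727 to 1518 UMIs, was different. Its median cell held 5.5, 15.5 and 7 Chil3 UMIs after air, 1 ppm and 1.5 ppm. Its summed level was 79.9%, 109.6% and 89.8% of the macrophage level in the same order. Its best-scoring class was alveolar macrophage, with 8 of 13 markers counted. It was left unnamed for its few UMIs and for having no marker among its leading genes.

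The proportion of Ear2 and Ear1 to Chil3 was set beside that in macrophages. Per 100 Chil3 UMIs, alveolar-macrophage-like cells held 13.1 Ear2 UMIs after air, 11.3 after 1 ppm and 10.4 after 1.5 ppm. T cell-like cells of 1.5 ppm held 9.70 (7.38 to 12.5), although 1 cell held 220 of their 660 Chil3 UMIs. The unnamed cluster led by Ccl4 and Ccl3, nearly all from the 1.5 ppm library, held 11.03 (9.53 to 12.7), and airway epithelial-like cells of 1.5 ppm 12.6 (9.84 to 16.05). The neutrophil-like and C1q macrophage-like classes stood apart. Neutrophil-like cells of 1.5 ppm held 19.4 (15.7 to 23.7), and C1q macrophage-like cells held 10.3 after air (8.67 to 12.2), 32.2 after 1 ppm (27.7 to 37.3) and 17.9 after 1.5 ppm (14.9 to 21.4), so they lay below alveolar-macrophage-like cells after air and above them after ozone. The same order held for Ear1, with 3.68, 6.57 and 6.91 Ear1 UMIs per 100 Chil3 UMIs in C1q macrophage-like cells (2.76 to 4.82, 4.82 to 8.77 and 5.18 to 9.07) beside 5.91, 4.02 and 4.49 in alveolar-macrophage-like cells. The C1q values rested on few cells. After air 10 of 46, after 1 ppm 6 of 24 and after 1.5 ppm 17 of 97 held at least 10% of the macrophage Chil3 level. In single C1q macrophage-like cells lay 519 of 1494 Chil3 UMIs after air and 273 of 746 after 1 ppm. Among neutrophil-like cells of 1.5 ppm, 1 cell held 147 of the 583 Chil3 UMIs. In that class 10 of 79 cells held at least 50% of the macrophage Chil3 level. The intervals leave out this spread between cells. The contrasts of both classes with alveolar-macrophage-like cells, and that between air and ozone, are therefore uncertain. Whether free RNA, doublets or expression gave the Chil3 and Ear2 counts of these classes was not tested.

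**Figure D5:**
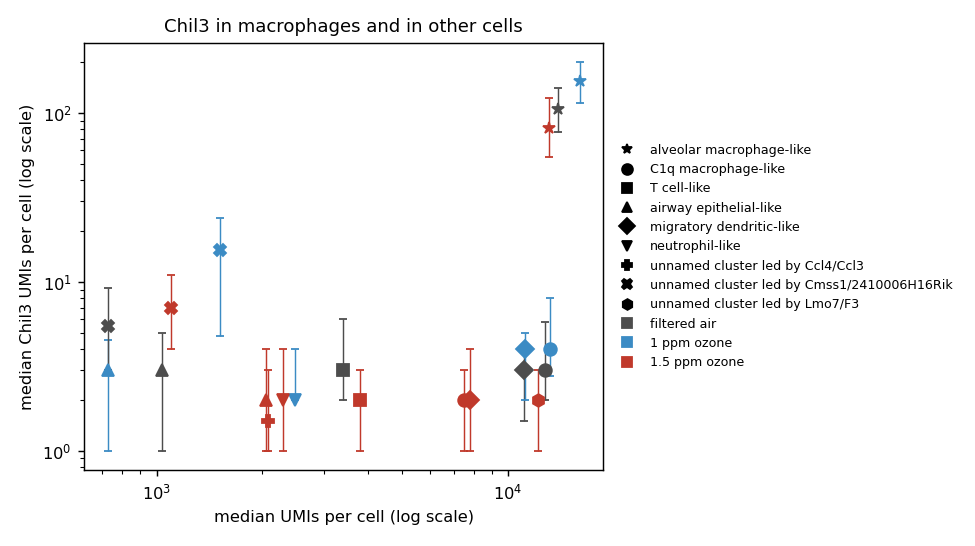
Median Chil3 UMIs per cell (y, log scale) against median total UMIs per cell (x, log scale) for each cell class and unnamed cluster with at least 10 cells in a library; shape gives the class, colour the library, and bars run over the middle 50% of cells. The other classes lie between 1.5 and 4 Chil3 UMIs over the whole range of depth, the unnamed Cmss1 cluster at 5.5 to 15.5, and alveolar-macrophage-like cells at 81 to 154.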

How the data were processed

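Per the file headers, Cell Ranger 8.0.0 made the tables of bronchoalveolar lavage cells; the build was GRCm39 (mm39), per the submitters' processing notes. The deposited values are whole-number UMI counts per gene and barcode, not normalized; no source used here says how intronic reads were handled. Cells of 3 to 4 mice were pooled into 1 library per group, so groups were compared by ratios of CPM (UMIs per 1000000 summed UMIs), with exact conditional (binomial) 95% intervals; levels have exact Poisson intervals and shares exact Clopper-Pearson intervals, all for counting error only. The log2 ratios add 1 UMI, and the minimum level was 50 CPM in the higher library and 100 UMIs over the 3 libraries. No test between groups was possible.

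Cells with at least 500 UMIs, at least 300 genes and at most 10% mitochondrial UMIs were scaled to 10000 UMIs, log transformed and clustered with scanpy 1.11.5 and leidenalg 0.10.2 (2000 variable genes, 30 principal components, 15 neighbours, resolution 1), with the 5 genes and their families left out, under Python 3.11.15. Clusters were named from marker lists; a name needed at least 3 counted markers. Scrublet marked 16 cells (0.130%), too few to have worked, so every cell was retained. The ratio calculation was tested on simulated counts. Promoters came from RefSeq GRCm38.p6, where all 5 genes matched by symbol, and transcripts from GENCODE M21.

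The 5 genes and the lists were chosen with earlier results of these data known. Genes named beside the 5 were, by rule, the 4 most like each one (1 for Chil4 is not reported here), family genes of at least 10 CPM and the 4 of each list with the largest change; Arg1, Retnla, Chia1, Chit1, Siglecf and the clusters' levels were singled out after their values were seen. Alternatives changed the cell filter, the class, the scaling, the minimum level and the thinning depth.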

Additional observations from a re-analysis of the deposited data

Results flagged for a closer look

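Chil3 and Ear2 had log2 ratios of opposite sign at the 2 ozone doses. Chil3 was at 0.33 after 1 ppm and -0.29 after 1.5 ppm against the shared filtered air library, and Ear2 at 0.11 and -0.63. With 1 library per dose the difference between doses was not tested, and dose cannot be told apart from library.

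Barcodes over 10% mitochondrial UMIs, 1594 after filtered air, 842 after 1 ppm and 454 after 1.5 ppm, are left out of the comparisons above, apart from the one over every barcode. In them Chil3 stood at 4340.4 CPM after air, 7689 after 1 ppm and 4019.9 after 1.5 ppm, so the ratio of 1 ppm to air was 1.77 (1.75 to 1.80). Ear2 had 459.9, 637 and 265 CPM, with a ratio of 1 ppm to air of 1.38 (1.32 to 1.45). Ear1 had 160.3, 172 and 132 CPM there, and its ratio of 1 ppm to air, 1.07 (0.979 to 1.17), did not lie below 1 as it did in the retained cells. Ear6 had 4 UMIs after air, 10 after 1 ppm and 4 after 1.5 ppm, with ratios to air of 4.62 after 1 ppm (1.33 to 20.2) and 6.14 after 1.5 ppm (1.14 to 32.9). Ear6 was thus above air in both ozone libraries there too, on few UMIs.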

How the results depend on the processing

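No paired analysis was possible because each group is 1 pooled library. Over 12 alternatives for the levels, each log2 ratio of the 5 genes kept its sign except Chil4 and Ear6 between the ozone doses (1.5 ppm against 1 ppm), which ran from -0.14 to 1.09 and from -0.35 to 0.27. The ratio of 1.5 ppm to air ran from -0.34 to -0.18 for Chil3, -0.83 to -0.31 for Ear1, -0.70 to -0.26 for Ear2 and 1.32 to 2.32 for Ear6, and that of 1 ppm from 0.29 to 0.39 for Chil3, -0.31 to -0.14 for Ear1, 0.06 to 0.20 for Ear2 and 1.57 to 2.05 for Ear6. Chil4 and Ear6 are limited by depth.

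Counts of genes past a fold moved more, and where not stated the cause was not tested. With no minimum level, which admits genes of few UMIs, 2684 genes were 1.5-fold higher and 3627 lower after 1 ppm than after air (main 15 and 32), 1758 and 1262 at 2-fold (main 2 and 6), 4053 and 3531 after 1.5 ppm (main 326 and 148), 1799 and 1893 at 2-fold (main 59 and 15), and 3469 and 3128 between the doses (main 183 and 55), 1770 and 1962 at 2-fold (main 54 and 4); Ear6 was then the 1 gene of the 5 that was higher than air at each dose. Weighting to the clusters of the air library, chosen after seeing the data, left 16 lower after 1 ppm (3 at 2-fold), 140 higher and 47 lower after 1.5 ppm (16 and 6 at 2-fold), 70 higher between the doses (16 at 2-fold), and 0 of the 5 genes lower in either comparison. Cells with at least 3 UMIs of dividing-cell genes were also left out, a cut not scaled to depth. Then 98 genes were lower after 1.5 ppm, 1 of the 5 among them (Ear1), and 35 were 2-fold higher. Between the doses 111 were then higher, 23 of them 2-fold, and 0 of the 5 lower. With size factors 96 genes were lower after 1.5 ppm and with the mean of each cell's CPM also 96, each time 1 of the 5 (Ear1); that mean gave 34 genes 2-fold higher between the doses. Over every barcode 0 of the 5 were lower after 1.5 ppm, 100 genes were 2-fold higher, and 10 were 2-fold lower between the doses. In cells of 2.5 to 4% mitochondrial UMIs 38 genes were 2-fold higher after 1.5 ppm than after air and 35 than after 1 ppm. Totals without mitochondrial, ribosomal protein and the 5 genes gave 83 lower between the doses, 8 of them 2-fold, a marker gate also 8, and leaving out the Slc7a11 and Hmox1 cluster 3 genes 2-fold lower after 1 ppm.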
